A study of Mus musculus with 6 samples.

Results

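The genes of the cytosolic ribosomal proteins were followed through a comparison of mouse leukaemia cells with and without a tamoxifen-activated Cre recombinase. Members were the genes whose probe sets carry exactly 1 symbol that begins with Rpl or Rps and a digit, together with Rpsa, Rplp0, Rplp1, Rplp2 and Fau, leaving out the S6 kinases, Rps19bp1 and pseudogene names. The rule gave 63 genes of 19938 named on the array, measured by 220 probe sets, and each gene was represented by its brightest probe set. Another 20 ribosomal protein names, Rpl3, Rpl11 and Rps26 among them, stand only on probe sets that carry several symbols and are not members. The cells were pre-B cells of C57BL/6 mice transformed with BCR-ABL1, a fusion kinase known from human Philadelphia chromosome-positive leukaemia, and all carried floxed alleles of Inpp5d (Inpp5d fl/fl), the gene of the lipid phosphatase SHIP1. On 3 arrays the cells had received the vector PMIP-CRE-ERT2 (labelled Cre-ERT2) and on 3 arrays the vector PMIP-ERT2, which lacks the recombinase (ERT2 control). Both groups were puromycin-resistant and had been exposed to 4-hydroxytamoxifen at 0.5 µM for 2 days. No group had Cre without floxed alleles, so activity of Cre and deletion of Inpp5d cannot be told apart. Nothing in the labels separates the arrays of a group into cultures or animals, and the p-values below measure the spread between arrays, which may be technical.

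The cytosolic ribosome translates every nuclear-encoded messenger RNA and consists of a small 40S subunit, which reads the message, and a large 60S subunit, which forms peptide bonds. Its proteins are made in near-equal numbers, from messenger RNAs that start with a terminal oligopyrimidine (TOP) tract. PI3K signalling through mTORC1 is known to control how these RNAs are translated, largely through the TOP-binding protein LARP1, while MYC is known to raise transcription of ribosomal protein genes. SHIP1 removes a phosphate from PIP3, the product of PI3K. Arrays measure the amount of RNA and not its translation, and in bulk RNA fewer cells with a transcript and less transcript per cell cannot be told apart.

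The values were taken to be log2 signals from RMA, and 14953 genes passed a filter on dim signal (a mean log2 value of at least 7.35, the 25th percentile of genes). The median over all probe sets was 8.21, 8.19 and 8.23 in ERT2 control arrays 1, 2 and 3. It was 8.37, 8.32 and 8.24 in arrays labelled Cre-ERT2 1, 2 and 3, each above every control. Inpp5d had log2 values of 13.20, 13.21 and 13.17 in the controls and 13.37, 13.34 and 13.34 in arrays labelled Cre-ERT2. The difference of 0.16 ± 0.041 (SE) runs against a loss and did not pass the threshold (limma adjusted p = 0.0545), but it passed in 5 of 9 other settings, again upward (lowest adjusted p = 0.00364). The sources used here do not say whether the single probe set of Inpp5d covers the deleted part, so groups are named by their labels. The array labelled Cre-ERT2 3 stood closer to ERT2 control arrays 3 and 1 (Pearson's r across probe sets 0.997 and 0.996) than to its own group (0.994 and 0.995). Pre-B cell markers such as Cd79a, Igll1 and Ebf1 were bright in every array, with list means from 12.91 to 12.94. Myeloid markers had list means from 7.18 to 7.27 in the controls and from 7.38 to 7.49 in arrays labelled Cre-ERT2, with 3 of 10 above the filter. The list means in the 2 groups, controls first, were 7.45 to 7.52 and 7.46 to 7.57 for T and NK cells, 7.63 to 7.65 and 7.65 to 7.81 for erythroid cells and megakaryocytes, and 8.01 to 8.12 and 8.15 to 8.31 for stroma. Single markers moved further: Lyz2, the lysozyme gene of myeloid cells, rose by a log2 difference of 0.79 (limma adjusted p = 0.00588), and Cd2, a T and NK cell adhesion gene also expressed in mouse B cells, fell by 0.64 (limma adjusted p = 0.00124). Whether cells of these types have a part in the results was not tested.

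The measured differences in ribosomal protein transcripts between the groups were small. Of 62 members tested, 1 was higher in arrays labelled Cre-ERT2 (Rpl3l), 1 was lower (Rpl12) and 60 did not pass an adjusted p of 0.05 in limma. The share called was 3.23%, against 7.62% of all genes tested. Rpl3l passed the filter only through the arrays in which it is higher, so its call gives the count no support. An unadjusted p under 0.05 was reached by 13 members (21.0%), 11 lower and 2 higher, against 33.4% of all genes. Of the 14953 genes tested, 2151 were lower and 2842 higher at that p. The 95% interval of the difference lay within 1.2-fold in either direction for 48 members (77.4%), against 58.1% of all genes tested. In the brightest decile, which holds 49 members, the shares were 91.8% of members and 87.2% of all genes. Only Rpl14 had an estimated difference of more than 1.2-fold. The remaining member, Rpl39l, had a mean below the filter and was not tested.

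The small differences leaned downward. The median log2 difference of the 62 members was -0.038, against 0.026 for all genes tested, and 46 members (74.2%) had a negative value, against 43.4% of all genes. Relative to the median of all genes the members' median was -0.064, and it was -0.036 after quantile normalization of the deposited values and -0.029 after loess between arrays. It was -0.015 with the filter at the 50th percentile, which leaves brighter genes to compare with. Most members are bright (49 of 62 lie in the top decile by signal), and 54.9% of all genes in that decile had a negative value, against 75.5% of the members there. Both subunits gave nearly the same median, -0.039 over 37 members of the 60S subunit and -0.037 over 25 members of the 40S subunit. The median deviation of the members from their own means was 0.026, -0.0043 and 0.045 in ERT2 control arrays 1, 2 and 3. It was -0.028, -0.031 and -0.0097 in arrays labelled Cre-ERT2 1, 2 and 3. All controls lay above all arrays labelled Cre-ERT2, but ERT2 control 2 lay nearer to the array labelled Cre-ERT2 3 than to the other controls. The arrays of the 2 groups did not overlap for 20 members (32.3%), against 38.5% of all genes tested. For 16 of these members (25.8%) the arrays labelled Cre-ERT2 were lower, against 17.7% of all genes. In the top decile by signal the arrays labelled Cre-ERT2 were lower without overlap for 26.5% of members and 22.2% of all genes.

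**Figure D1:**
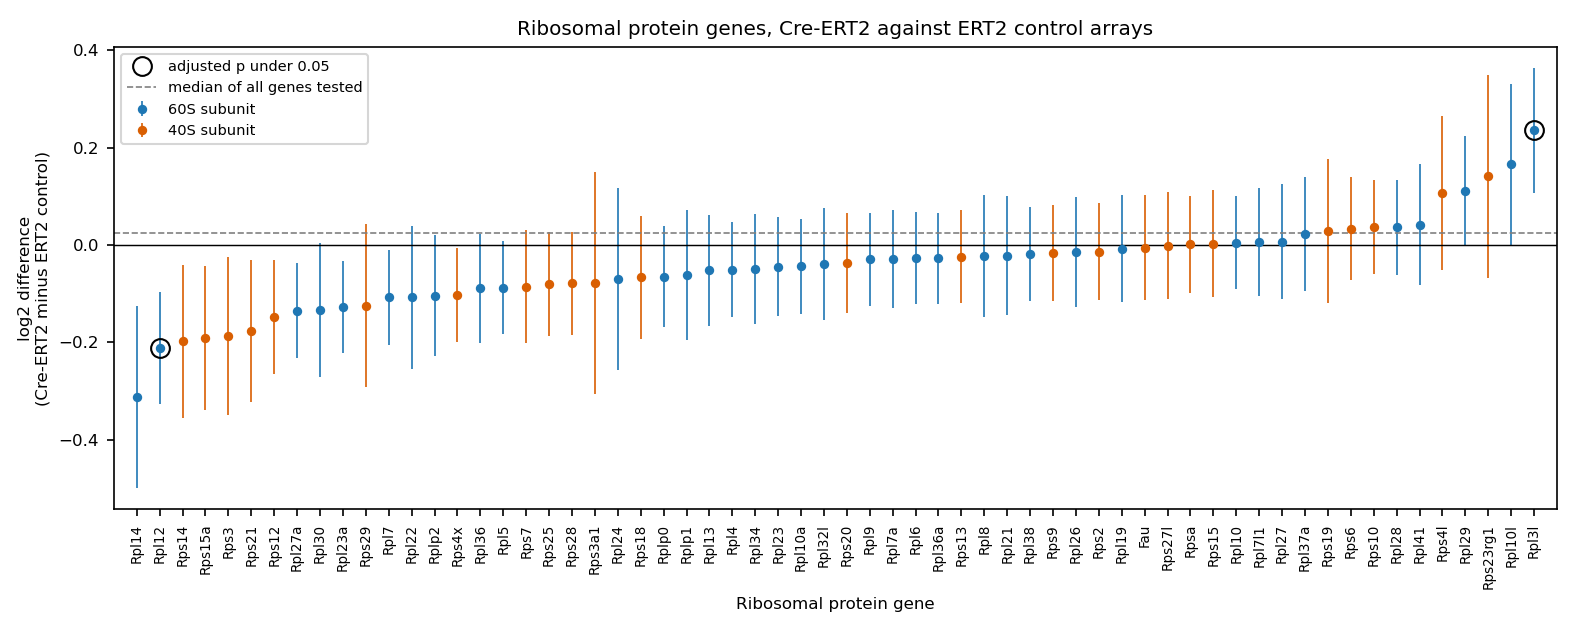
Log2 difference (Cre-ERT2 minus ERT2 control, y axis) of the 62 ribosomal protein genes tested, in rising order, with 95% intervals from limma, coloured by subunit. Open rings mark Rpl12 and Rpl3l, the 2 genes past the threshold, and the dashed line is the median of all genes tested (0.026); most members lie between -0.20 and 0.041.

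The tract of a TOP messenger RNA lies at its 5′ end, so runs of C and T were sought at annotated gene starts. RefSeq start regions (GRCm38.p6) were matched by symbol for 51 of the 63 members, and 30 bases around the annotated start (12 before it, 18 from it on) are shown in the sense direction for both genes called, for some members described below and for a tissue-restricted paralog. Capitals mark the longest run of C and T in the window, which need not be a TOP tract. The 12 bases before the annotated start are not part of the annotated RNA. The marked run lies wholly among them in Rpl10l, partly among them in genes such as Rpl14, and some bases after the start in Rpl3l.
Rpl12: ggagcaggatccgTCTTTTCggctttcggc
Rpl14: cgggCCCTCTCTCTTCTCgctgagcgccgc
Rps15a: tctttctgccaTCTTCCCTCgccggtgagt
Rps6: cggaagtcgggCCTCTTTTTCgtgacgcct
Rpl38: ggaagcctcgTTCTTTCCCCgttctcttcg
Fau: gcgcccccaCTTCTTCCTCTTTCTTgactc
Rpl3l: tgttctagctctgtcatttgaCCTCTggtg
Rpl10l: ggCCTCCattttgcggctggcggtgggcac
The windows lie at chr2:32961700-32961729 on the plus strand for Rpl12, chr9:120571505-120571534 (plus) for Rpl14, chr7:118116130-118116159 (minus) for Rps15a and chr4:86857350-86857379 (minus) for Rps6. They lie at chr11:114668568-114668597 (plus) for Rpl38, chr19:6057935-6057964 (plus) for Fau, chr17:24727814-24727843 (plus) for Rpl3l and chr12:66284384-66284413 (minus) for Rpl10l. The longest run had 7 bases in Rpl12, 14 in Rpl14, 9 in Rps15a, 10 in Rps6, 10 in Rpl38 and 16 in Fau. In Rpl3l and Rpl10l it had 5.

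A pyrimidine run was common among the members, and the median difference was below 0 with and without one. A run of at least 7 C or T bases on the sense strand within 25 bases of an annotated start was present in 29 of 51 members (56.9%), against 31.9% of 11773 other genes tested. Genes with several annotated starts were counted if any start had one, and RefSeq starts can lie some bases from the true one. The median log2 difference was -0.047 over the 28 members tested with a run, of which 22 were negative, and -0.025 over 22 without, of which 14 were negative. Among the other genes tested it was 0.030 with a run and 0.016 without. The letters CCGGAAG, which ETS factors can bind, were present on either strand of the 300 bases around the start in 19 of 51 members (37.3%) and in 17.0% of the other genes tested. Members with these letters had a median log2 difference of -0.023, and members without them -0.034. For the other genes tested the medians were -0.039 with the letters and 0.035 without. The E-box CACGTG, a sequence that MYC can bind, was found in 5 members (9.80%) and in 11.1% of the other genes tested.

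Rpl12 was the only member called lower, in a probe set of middling signal, while brighter probe sets that list the gene beside another symbol had values near 0. It encodes a protein at the base of the 60S stalk, where elongation factors dock. Its log2 values were 10.64, 10.76 and 10.69 in the controls and 10.44, 10.48 and 10.53 in arrays labelled Cre-ERT2. Every array labelled Cre-ERT2 lay below every control. Rpl12 fell by a log2 difference of 0.21 ± 0.050 (SE), 1.16-fold, with a 95% interval from -0.33 to -0.097 (limma adjusted p = 0.0432, against 4.13% of all genes called lower). Its adjusted p stayed under 0.05 in 1 of 6 fits that each omitted 1 array, namely when Cre-ERT2 3 was omitted (0.0307), and was 0.0628 after loess between arrays and 0.0759 after quantile normalization. The call rests on a single probe set with a mean log2 value of 10.59. Another 8 probe sets list Rpl12 beside another symbol and were left out by the rule. In 7 of these the signal was higher, with means from 13.75 to 14.28, and the log2 difference lay between 0.0018 and 0.015. The eighth had a mean of 10.63 and a difference of -0.31. The signal of a probe set with several symbols cannot be assigned to 1 gene, so the fall is that of the probe set, and a fall of the main Rpl12 transcript was not shown.

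Rpl3l was the only member called higher. It encodes the version of Rpl3 made in heart and skeletal muscle. Its log2 values were 7.27, 7.35 and 7.35 in the controls and 7.53, 7.66 and 7.49 in arrays labelled Cre-ERT2. The groups did not overlap, but the control mean of 7.32 lay below the filter of 7.35, so the gene entered the test through the arrays labelled Cre-ERT2. It rose by a log2 difference of 0.24 ± 0.056 (SE), 1.18-fold (limma adjusted p = 0.0439, against 3.5% of all genes called higher). In the dimmest decile of genes, where Rpl3l lies, the median log2 difference was 0.11. After loess between arrays its value was 0.13 (adjusted p = 0.124), after quantile normalization 0.13 (0.171), after centring on array medians 0.13 (0.192), and without the filter its adjusted p was 0.0753. With an array left out it passed only without the array labelled Cre-ERT2 3 (0.0274).

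Among the other proteins of the 60S subunit, Rpl14 had the lowest value and did not pass. The log2 values of Rpl14 were 11.37, 11.08 and 11.19 in the controls and 10.85, 10.83 and 11.02 in arrays labelled Cre-ERT2. The groups were separate by 0.064 at the nearest pair, ERT2 control 2 and Cre-ERT2 3, and each group was widely spread. The difference was -0.31 ± 0.082 (SE), 1.24-fold, with a 95% interval from -0.50 to -0.12 (limma adjusted p = 0.0545), and it passed without the array labelled Cre-ERT2 3 (0.0284) and in 4 of the 9 other settings. Rpl27a was tight in both groups, with log2 values of 13.49, 13.51 and 13.46 in the controls against 13.35, 13.33 and 13.37. Its difference of -0.13 ± 0.043 did not pass (limma adjusted p = 0.0795). Rpl7, an RNA-binding protein of the subunit, had -0.11 ± 0.043 (limma adjusted p = 0.124), also with no overlap between groups.

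The proteins of the acidic stalk, which recruits the elongation factors, did not pass. The log2 difference was -0.065 for Rplp0, the stalk's anchor, -0.061 for Rplp1 and -0.10 for Rplp2. The value of Rplp2 rests on 1 probe set with a mean log2 value of 8.59. In its brightest probe set the values of Rplp0 were 14.29, 14.27 and 14.31 in the controls and 14.17, 14.27 and 14.23 in arrays labelled Cre-ERT2, so that the array labelled Cre-ERT2 2 stood just below the lowest control. The other probe set of Rplp0, of nearly equal signal (mean 14.16 against 14.26), had a difference of 0.0011. Rpl5, which binds the 5S ribosomal RNA and can restrain MDM2 when free of ribosomes, had log2 values of 13.53, 13.56 and 13.58 against 13.47, 13.48 and 13.45, with no overlap and a difference of -0.088 ± 0.042 (limma adjusted p = 0.176). Rpl22, which is dispensable for most translation and needed for T cell development in mice, had -0.11 ± 0.064, with a high value in 1 of the 3 arrays labelled Cre-ERT2 (10.07, 10.12 and 10.30 against 10.31, 10.23 and 10.27).

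Further 60S genes had values on both sides of 0. Rpl23a, which stands near the tunnel exit and is named after its values were seen, had 13.18, 13.19 and 13.19 in the controls against 13.06, 13.04 and 13.07, with no overlap and a difference of -0.13 ± 0.041 (limma adjusted p = 0.0811). Rpl10, whose protein joins the subunit late and sits near the peptidyl transferase centre, had a log2 difference of 0.0049 with a 95% interval from -0.090 to 0.10. The arrays labelled Cre-ERT2 gave Rpl10 the value 14.38 in each case, between the control values of 14.40, 14.38 and 14.35. Rpl38, which in mice is known for its part in translating Hox messages, had -0.018, Rpl28 had 0.037 and Rpl41, the gene of a very short basic peptide, 0.041. Rpl29 had the highest value among the members other than paralogs and retrogenes, 0.11 ± 0.050 (limma adjusted p = 0.157), with log2 values of 13.36, 13.36 and 13.38 in the controls and 13.56, 13.43 and 13.45 in arrays labelled Cre-ERT2, without overlap.

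No 40S member passed the limma test (0 of 25 at an adjusted p of 0.05, 6 at an unadjusted p under 0.05, all of them lower). Those 6 are 24.0% of the 40S members, against 33.4% of all genes, a share that counts both directions. Of 14953 genes tested, 2151 were lower at that p. Rps14, the gene in the commonly deleted region of human 5q- syndrome, had log2 values of 13.00, 13.07 and 12.89 in the controls and 12.70, 12.78 and 12.90 in arrays labelled Cre-ERT2. ERT2 control 3 and the array labelled Cre-ERT2 3 were nearly level, so the groups overlapped, and the difference was -0.20 ± 0.068 (limma adjusted p = 0.0942). Rps15a had 10.58, 10.75 and 10.62 against 10.36, 10.49 and 10.54, without overlap, and a difference of -0.19 ± 0.064 (limma adjusted p = 0.0907), which was -0.040 in a brighter probe set that lists Rps15a with another symbol. Rps3, which lines the channel where messenger RNA enters, had -0.19 ± 0.071 (limma adjusted p = 0.115), and its controls were split between 12.91 in ERT2 control 2 and 13.12 and 13.14 in the others. Rps21 had -0.18 ± 0.064 (limma adjusted p = 0.103). Rps12 had -0.15 ± 0.051 (limma adjusted p = 0.0942), without overlap between groups.

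Other 40S genes had smaller differences. Rps6, the substrate of the S6 kinases below mTORC1, had log2 values of 14.31, 14.28 and 14.31 in the controls and 14.39, 14.32 and 14.29 in arrays labelled Cre-ERT2. These ranges overlap, and the difference was 0.034 with a 95% interval from -0.072 to 0.14. Rps19 and Rps10, which are mutated in human Diamond-Blackfan anaemia, had 0.029 and 0.037. Fau, which encodes Rps30 fused to a ubiquitin-like protein, had -0.0058, and Rpsa, also known as the laminin receptor gene, had 0.0010 in its brightest probe set, although 4 of its 5 probe sets had negative values, with a median over the 5 of -0.16. Rps4x, the X-linked gene of a 40S protein, had 13.84, 13.83 and 13.88 against 13.77, 13.74 and 13.74, a difference of -0.10 ± 0.042 with no overlap (limma adjusted p = 0.134).

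**Figure D2:**
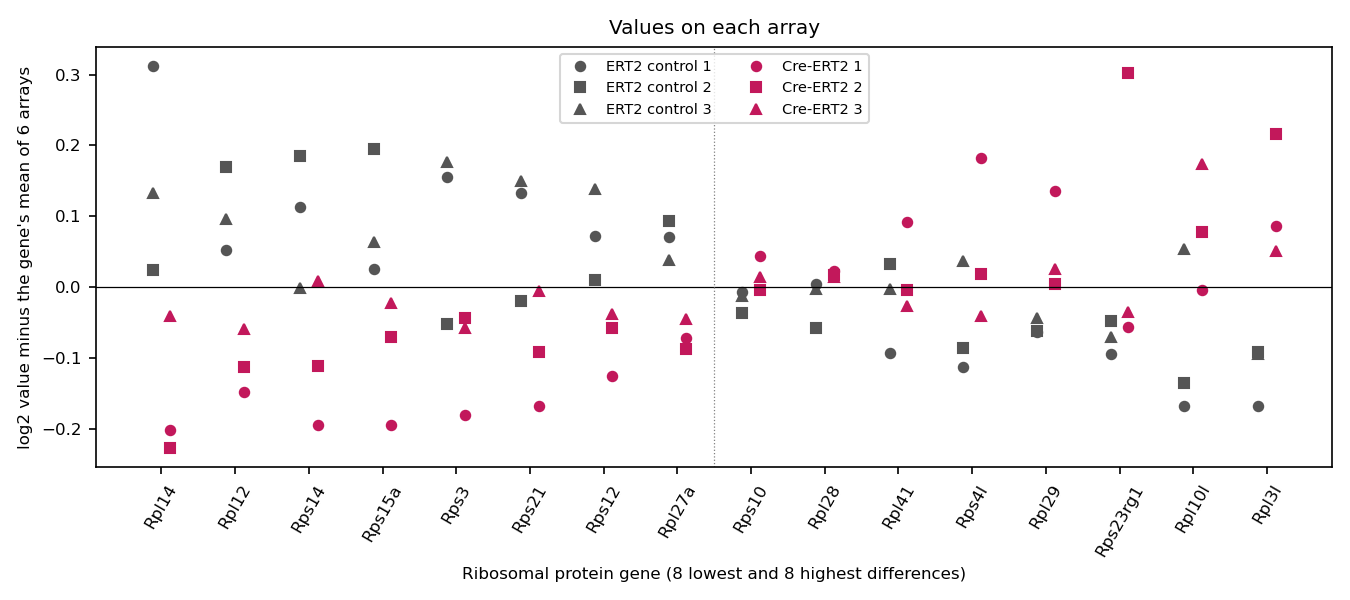
Log2 value on each array minus the gene's mean over 6 arrays (y axis) for the 8 members with the lowest and the 8 with the highest difference; grey symbols are ERT2 control arrays and pink symbols arrays labelled Cre-ERT2, with the symbol shape giving the replicate number. Rpl12, Rpl14, Rps15a, Rps12 and Rpl27a are separate between groups on the left, and the array labelled Cre-ERT2 3 lies closest to the controls for Rpl14, Rpl12, Rps14 and Rps15a.

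The 7 paralogs and retrogenes that were tested fell into a dim and a bright set. Rpl3l, Rpl10l, Rps23rg1 and Rps4l had dim probe sets, with means below a log2 value of 9, and differences of 0.24, 0.17, 0.14 and 0.11. Rpl10l, the testis form of Rpl10, had log2 values of 8.42, 8.45 and 8.64 against 8.58, 8.66 and 8.76, and the groups overlapped (limma adjusted p = 0.149). The value of Rps23rg1, a retrogene of Rps23, came from 1 array, with 8.36, 8.72 and 8.38 in arrays labelled Cre-ERT2 against 8.32, 8.37 and 8.34. Over all genes tested, the median difference was 0.11, 0.12, 0.12 and 0.088 in the 4 dimmest deciles. Dim signal did not always go with a positive value, since the stalk gene Rplp2, in the fourth decile by signal, had -0.10. The paralogs with bright probe sets lay near 0. Rps27l, known as a p53 target, had -0.0011, Rpl7l1, a nucleolar relative of Rpl7, had 0.0061, and Rpl32l had -0.039. Without these 7 genes the median of the members was -0.050.

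Values differed by signal among the brighter members too. The 49 members, Rps27l and Rpl7l1 included, in the brightest decile of genes had a median log2 difference of -0.029 (lowest -0.20, highest 0.11), against -0.0090 for all genes in that decile, and 0 were called, against 74 of 1496 genes. The members with middling signal all had negative values: 3 in the seventh decile had a median of -0.19, against -0.061 for all genes there, and 4 in the eighth had -0.15, against -0.044. These 7 were Rpl12, Rpl14, Rpl22, Rpl30, Rps15a, Rps21 and Rps3a1, of which Rpl30 and Rps3a1 are named after their values were seen. The signal of a probe set depends on its probes as well as on the RNA, so levels of different genes are not compared. The part of signal strength in these differences was not tested.

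**Figure D3:**
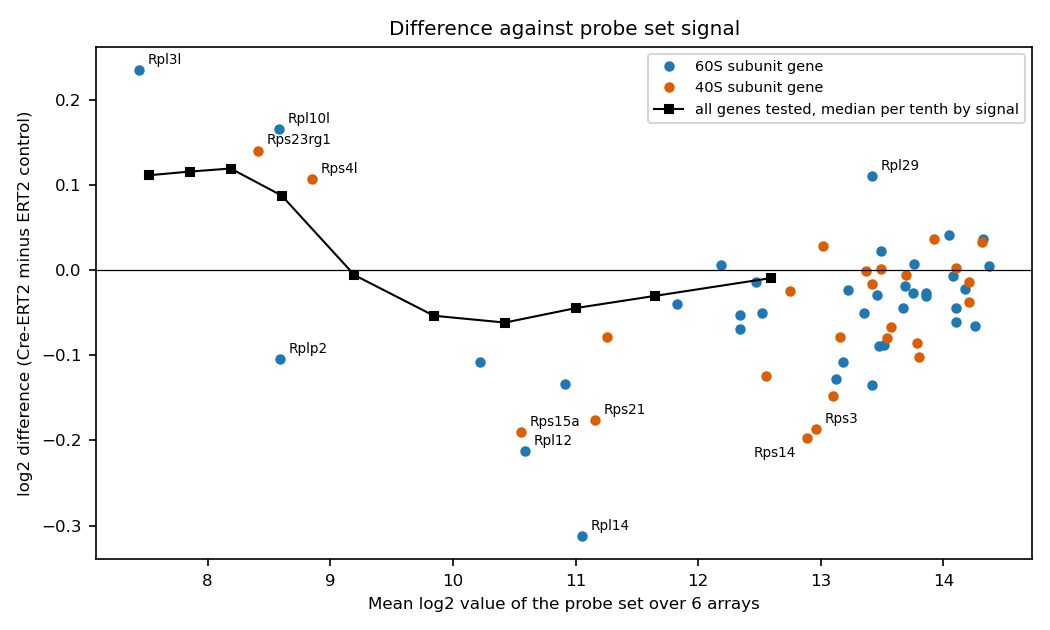
Log2 difference (Cre-ERT2 minus ERT2 control, y axis) against the mean log2 value of the probe set (x axis) for the members, with the median of all genes tested in each decile by signal as black squares. The dim paralogs Rpl3l, Rpl10l, Rps23rg1 and Rps4l lie on the same side as the median of dim genes (0.11 in the lowest decile), and Rpl14, Rpl12, Rps15a and Rps21 lie below the median of genes of like signal.

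Most ribosomal protein genes were measured more than once, which shows how far a value depends on the probe set. Probe sets that match a gene may also take up signal from its processed pseudogenes, which are numerous in this family, so values of single members are uncertain to that extent. Of the 220 probe sets, 169 (76.8%) had a negative difference. Among 40 genes with several probe sets, all probe sets were negative in 26, all positive in 6 and mixed in 8. The SD of the difference between probe sets of a gene had a median of 0.017 over the 40 genes with several. The SD between genes was 0.091 over all 62 members tested. These include dim paralogs and genes with 1 probe set, so the 2 SDs cover unlike sets of genes. All 14 probe sets of Rps12 lay between -0.16 and -0.12, all 9 of Rpl27a between -0.17 and -0.12, and all 8 of Rps6 between 0.0087 and 0.035. These are not independent measurements, since 19 of the 220 hold values identical to another on all arrays, 8 of them for Rps12.

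In some genes the value depended on the probe set. The SD between probe sets was highest in Rpsa (0.089) and Rps21 (0.088). The 5 probe sets of Rpsa ranged from -0.24 to 0.0010, and the dimmest (mean log2 value 11.84) was called lower when probe sets were tested in place of genes (limma adjusted p = 0.0405), beside those of Rpl12 and Rpl3l. With 3 of 219 member probe sets called, that share was 1.37%, against 6.87% of all named probe sets. In 6 genes the dimmest and the brightest probe set were more than 1 log2 unit apart in signal, and in all 6 the dimmest had the lower difference. For Rps21 the values were -0.30 in the dim and -0.18 in the bright probe set. For Rpl7a they were -0.11 and -0.029, for Rpl27 -0.088 and 0.0069, for Rpl23 -0.082 and -0.044, and for Rpl24 -0.097 and -0.069. Over all 40 genes the dimmest probe set had the lower difference in 24. Rpl7a, Rpl23, Rpl24 and Rpl27 are named after their values were seen.

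Probe sets with several symbols bear on some members in the same way as on Rpl12. Such probe sets exist for 19 of the 63 members, and in 12 of them the brightest was brighter than the one used here. In 6 members it was brighter by more than 1 log2 unit. For Rps15a the difference was -0.040 in the brighter shared probe set and -0.19 in its own. For Rpl34 the values were 0.00033 and -0.050, and for Rpl32l 0.0047 and -0.039. In Rpl30 (-0.13 in both) and Rps3a1 (-0.084 and -0.078) the shared and the own probe set gave similar values. With the brighter shared probe sets put in place of the members' own, the median log2 difference of the 62 members was -0.033, with 42 negative values. This comparison was chosen after the data were seen, and so was the naming of Rpl30, Rpl34 and Rps3a1.

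**Figure D4:**
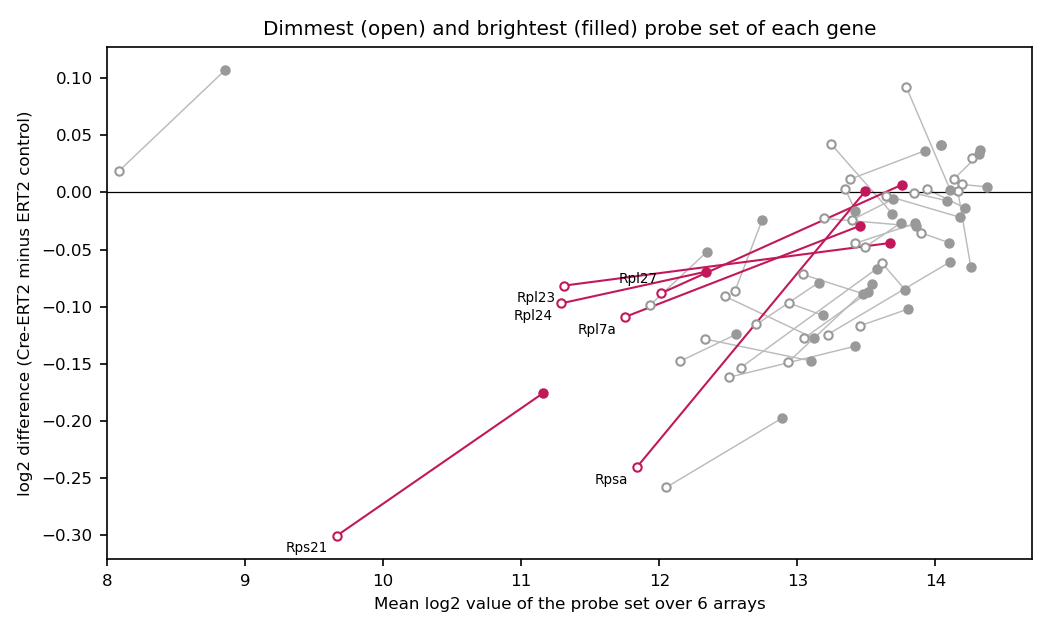
Log2 difference (y axis) against mean log2 value (x axis) of the dimmest (open) and the brightest (filled) probe set of each of the 40 members with several; pink marks the 6 genes whose 2 probe sets lie more than 1 log2 unit apart. All pink lines rise to the right, most steeply for Rpsa (-0.24 and 0.0010).

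Genes that work with the ribosome were set beside its proteins, from lists chosen by function. Of 14 TOP-class translation genes outside the ribosome, 0 passed in limma, against 7.62% of all genes, and the median log2 difference was -0.028. Negative values were found in 12 (85.7%), against 43.4% of all genes and 54.9% of those in the brightest decile. The interval lay within 1.2-fold for all 14, against 58.1% of all genes and 87.2% in the brightest decile. The median signal of the list was 13.32, and that of the brightest decile 12.60. At an unadjusted p under 0.05 the list held 1 gene (7.14%, against 33.4% of all genes). It was Eef1d (-0.11), which encodes a subunit of the exchange factor for the elongation factor eEF1A. The gene of that factor, Eef1a1, had -0.023, Eef2, of the translocation factor, -0.022 and Btf3, a partner of nascent chains, 0.073. Of 13 tested genes that control ribosomal protein messages, 0 passed in limma (3 at an unadjusted p under 0.05, 23.1% against 33.4% of all genes). The 3 were Rheb, the mTORC1 activator (-0.17), Mtor itself (0.16) and Cnbp, which binds TOP messages (-0.14). Larp1 had -0.0061. Myc, whose product acts on ribosomal protein genes, fell by a log2 difference of 0.22 ± 0.042 (SE, limma adjusted p = 0.0259). Myc kept its call in 1 of 6 fits that omitted an array and in 7 of the 9 other settings.

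Assembly and initiation factors had lower medians than the ribosomal proteins as a whole, and the sets differed in signal. The median of the mean log2 values was 10.72 for assembly factors, 12.18 for initiation factors and 13.42 for ribosomal proteins. The 3 ribosomal proteins in the seventh decile by signal had a median log2 difference of -0.19, and the 4 in the eighth had -0.15. Of 32 tested factors for assembly and export of the subunits, 4 fell, 0 rose and 28 did not pass, with a median log2 difference of -0.14 and 30 negative values. The share called, 12.5%, stands beside the 4.13% of all genes called lower. In the sixth, seventh and eighth deciles by signal, 8.56%, 6.62% and 7.22% of all genes were called lower. After loess between arrays the share of assembly factors called was 12.5% too, all lower, against 7.83% of all genes in either direction. Tsr2, whose yeast counterpart escorts Rps26, had log2 values of 10.62, 10.51 and 10.45 in the controls and 10.08, 10.15 and 10.32 in arrays labelled Cre-ERT2, and fell by 0.34 ± 0.072 (limma adjusted p = 0.0340). Heatr3, which carries Rpl5 to the nucleus in human cells, fell by 0.21, Rpf2, which loads the 5S particle with Rpl5, by 0.20, and Wdr12, of the PeBoW complex of 60S maturation, by 0.21. The fall of Heatr3 rests on its brightest probe set, and the mean of its probe sets gave -0.027 (limma adjusted p = 0.681).

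Of 25 other initiation factors tested, 4 fell, 0 rose and 21 did not pass, with a median log2 difference of -0.10. The share called lower was 16.0%, against 4.13% of all genes, and 48.0% had an unadjusted p under 0.05, against 33.4%. After loess between arrays the share called was 12%, all lower, against 7.83% of all genes in either direction. After quantile normalization it was 8%, all lower, against 6.65%. Those called were Eif1a (-0.22) and Eif1ax (-0.22), which take part in scanning, Eif2b1 (-0.23), of the exchange factor for eIF2, and Eif3i (-0.23), of the eIF3 complex. Eif3i had log2 values of 11.90, 11.88 and 11.86 in the controls and 11.59, 11.61 and 11.73 in arrays labelled Cre-ERT2. Eif1a and Eif1ax are near-identical copies whose signals may not be separable. Without 1 array, the 4 lists together held between 0 and 17 called genes in place of 8. The 17, of 84 tested, were found without the array labelled Cre-ERT2 3, a fit in which 20.3% of all genes were called. Without Cre-ERT2 2 there was 1, against 3.51% of all genes. Without any one of the others there were 0, against 0.776% to 2.32% of all genes. The members and the lists were not tested against each other.

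**Figure D5:**
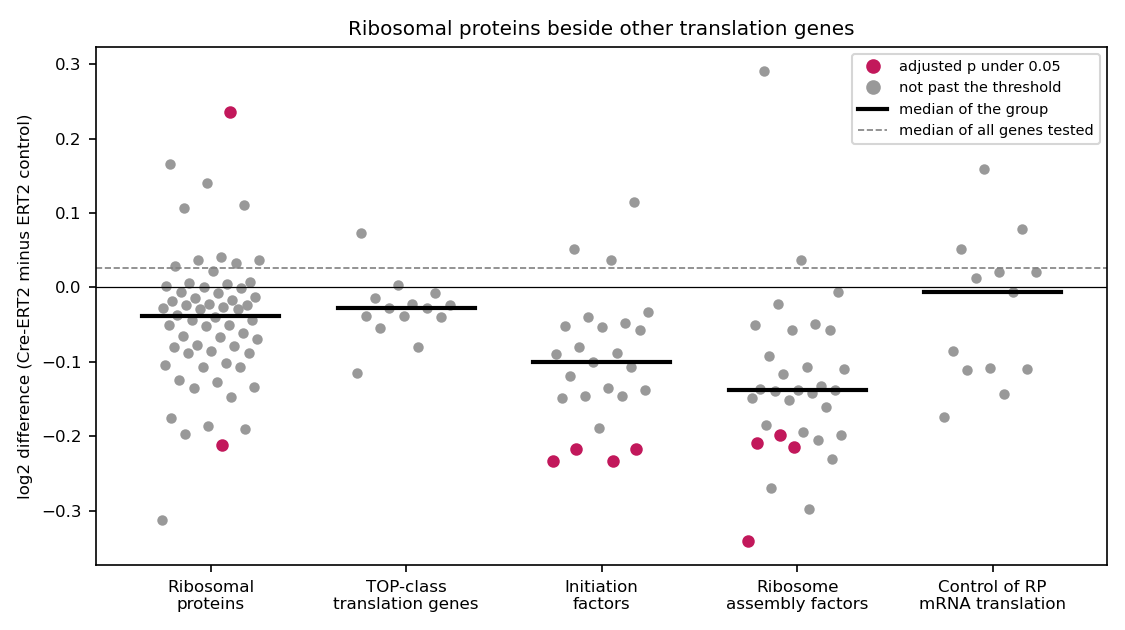
Log2 difference (Cre-ERT2 minus ERT2 control, y axis) of each gene tested, for the ribosomal proteins and 4 lists of genes that work with them; pink points passed an adjusted p of 0.05, bars are group medians and the dashed line is the median of all genes tested (0.026). The medians are -0.038 for the ribosomal proteins, -0.028 for TOP-class genes, -0.10 for initiation factors, -0.14 for assembly factors and -0.0061 for the genes of control.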

How the data were processed

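RNA of 6 samples was hybridised to mouse Affymetrix arrays, and the authors deposited 1 log2 value per probe set and array (35556 probe sets). Per the submitters' processing notes the tools were RMA and Partek 6.5, with no settings given. No build for the arrays was found in those notes. The annotation table of the array gave 1 symbol to 21789 probe sets, several to 1621 and none to 12146. Entrez identifiers of all 63 members were found in the RefSeq table (GRCm38.p6) and 0 symbols differed. Groups and replicate numbers came from the sample titles. The fit was limma's lmFit and eBayes (version 3.58.1, R 4.3.3; two-sided, Benjamini-Hochberg over 14953 genes, no covariate). Arrays give no read depth, and precision is limited by having 3 of them in each group. Alternatives were other filters, probe set averaging, 3 further scalings, other eBayes settings, array weights, a replicate block, the omission of each array in turn and a threshold of 0.01. A test over all named probe sets and a look at probe sets with several symbols were chosen after seeing the data. The fit was tested on simulated data. Same-numbered arrays had correlations of their deviations from the group mean of 0.16, 0.024 and -0.20. With 3 arrays in each group these deviations depend on each other, so whether the numbers pair the arrays cannot be told from them. Named genes were those called, the 8 largest differences each way, the brightest and dimmest 3, paralogs with their parents, a set of well-known members, and the called or 4 leading genes of each list. Members and lists were chosen with earlier results of these data known. Python 3.11.15, pandas 2.3.3 and matplotlib 3.10.9 were used.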

Additional observations from a re-analysis of the deposited data

How the results depend on the processing

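The count of ribosomal protein genes called, 2 of 62, changed with the settings, while the median difference stayed negative in every one. The count was 0 without the filter, after quantile normalization, after loess, with the replicate block and at a threshold of 0.01. It was 4 with the filter at the 50th percentile (6.67% against 15.7% of all genes), 11 with trend and robust estimation (10 lower, 17.7% against 14.4%), 11 with array weights (9 lower, 17.7% against 26.7%) and 14 after centring (all lower, 22.6% against 20.2% of all genes). Among the named members the count was 0, 0, 0 and 0 in the first 4 of these, and 10, 10 and 11 with trend, weights and centring. Without 1 array it ranged from 0 to 5 (named members 0 to 4), and the 5 (8.06% against 20.3% of all genes) were called without the array labelled Cre-ERT2 3: Rpl12, Rpl14, Rpl30, Rps14 and Rpl3l. Such fits have fewer degrees of freedom. Centring lowered the median of all genes from 0.026 to -0.077 and the medians to -0.14 for all members, -0.14 for the 60S and -0.14 for the 40S subunit. With 1 array left out the medians ranged from -0.055 to -0.026, from -0.053 to -0.027 for the 60S and from -0.064 to -0.022 for the 40S subunit. All genes called numbered 1140, and 437 without the filter, 3020 after centring, 2147 with trend, 3993 with weights, 147 with the replicate block and 116 to 3042 without 1 array; the split of 45.9% higher became 7.38% after centring. The 4 lists held 8 called genes of 84 tested, beside 7.62% of all genes called. The count was 0 without the filter (2.19% of all genes called), 16 with the stricter filter (15.7%) and 41 after centring (20.2%). It was 23 with trend (14.4%), 29 with weights (26.7%) and 0 with the replicate block (0.983%). Without 1 array it was 0 to 17 (0.776% to 20.3%). Of 808 values of single named genes under alternatives, 87 lost a call, 51 gained one, and none whose unadjusted p was under 0.05 changed sign. The cause of these changes was not tested.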
